A study of Mus musculus with 12 samples.

Results

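The integrated stress response and the unfolded protein response were followed in mouse heart RNA through 42 listed genes of the 55453 gene symbols counted. The list was taken as given, by gene symbol, and was split here by role into 22 genes of the ATF4 arm and 20 genes of the endoplasmic reticulum (ER) arm. The filter on low counts kept 41 of the 42 genes. Fgf21, the stress hormone of the ATF4 arm, was not tested because no library held more than 3 of its counts, and all 6 KO-labelled libraries held 0. The RNA came from 12 hearts, 3 in each of 4 groups: mice labelled PDE10A knockout (KO) given doxorubicin (DOX), KO-labelled mice given vehicle, wild-type (WT) mice given DOX and WT mice given vehicle. All were labelled C57BL/6J, and each library is named here by the mouse number in its title. DOX, an anthracycline cancer drug that harms the heart, was given as a single intraperitoneal bolus of 15 mg/kg, and the protocol runs for 7 days after it. PDE10A is a phosphodiesterase that breaks down cAMP and cGMP. The protocols cover male and female mice and a PDE10A inhibitor, TP-10. No library used here is labelled with TP-10, and sex and age per mouse are not given. The KO-labelled vehicle mice carry numbers from veh_3393 to veh_3395 and the other mice numbers from 1 to 24. Whether they were kept apart is not given, so any such difference cannot be told apart from the groups.

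The integrated stress response begins when a kinase phosphorylates the translation factor eIF2, which slows protein synthesis in general while the transcription factor ATF4 is made more. ATF4, with partners such as CHOP (Ddit3) and the C/EBP proteins, switches on genes for amino acid import, amino acid and one-carbon synthesis, and stress hormones such as GDF15. The unfolded protein response starts from the ER membrane sensors PERK (Eif2ak3), IRE1 (Ern1) and ATF6, and acts through ATF4, spliced XBP1 and cleaved ATF6 to raise chaperones, disulfide isomerases and proteins that remove misfolded clients. Splicing of Xbp1, cleavage of ATF6 and phosphorylation of eIF2 are not visible in counts per gene.

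Short promoter elements are known to bind the factors of each arm, and those found near the start sites of these genes are shown first. The RefSeq promoter table for GRCm38.p6 held a window of 300 bases, from 250 before to 50 after a start site, for 37 of the 42 genes. No window was used for Atf6, Eif4ebp1, Hyou1, Manf and Slc7a5. Both strands were searched for the ER stress element (CCAAT, any 9 bases, CCACG), the ER stress element II (ATTGG, any 1 base, CCACG), the C/EBP-ATF response element (TGATGNAA) and the XBP1 element (TGACGTGG). The ER stress element was found in 7 of 17 ER-arm windows (41.2%), in 0 of 23 ATF4-arm windows and in 0.119% of the 32851 windows in the table. Each is printed with 10 flanking bases in the orientation of the motif, with the motif letters in capitals, and the coordinates are those of the motif without its flanks:
Hspa5 (chr2:34772025-34772043, plus strand of the gene): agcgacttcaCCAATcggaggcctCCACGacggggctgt
Hsp90b1, far element (chr10:86705638-86705656, minus-strand gene, same strand): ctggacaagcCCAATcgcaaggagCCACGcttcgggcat
Hsp90b1, near element (chr10:86705533-86705551, opposite strand to the gene): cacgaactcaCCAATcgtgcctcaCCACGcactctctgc
Calr (chr8:84847075-84847093, opposite strand): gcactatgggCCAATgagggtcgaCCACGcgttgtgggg
Canx (chr11:50325800-50325818, same strand): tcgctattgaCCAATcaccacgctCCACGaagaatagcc
Creld2 (chr15:88819520-88819538, opposite strand): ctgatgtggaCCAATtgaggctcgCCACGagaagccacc
Pdia6 (chr12:17266491-17266509, same strand): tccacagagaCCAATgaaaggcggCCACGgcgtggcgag
Dnajc3 (chr14:118937827-118937845, same strand): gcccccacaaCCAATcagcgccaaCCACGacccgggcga

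The C/EBP-ATF response element, the sequence that ATF4 binds with a C/EBP partner, was found in 7 of 23 ATF4-arm windows (30.4%), in 1 of 17 ER-arm windows and in 3.97% of all windows. The 7 ATF4-arm genes were Asns, Chac1, Fgf21, Nupr1, Pck2, Pycr1 and Trib3, and the ER-arm gene was Herpud1. Herpud1 also held the sole ER stress element II among the windows of the 37 genes, against 0.0365% of all windows. The XBP1 element was found in none of the windows of the 37 genes and in 0.676% of all windows. These are matches of letters, not measured binding. The Trib3 match lies after the start site, at positions 15 to 22, and the other printed matches lie before theirs. The elements of 5 genes whose values are described below read as follows, again with the motif in capitals and 10 bases on either side:
Pck2 (chr14:55540163-55540170, opposite strand): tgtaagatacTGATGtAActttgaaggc
Chac1 (chr2:119351049-119351056, opposite strand): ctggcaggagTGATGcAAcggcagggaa
Asns (chr6:7693225-7693232, same strand): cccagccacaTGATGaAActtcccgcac
Trib3 (chr2:152344039-152344046, opposite strand): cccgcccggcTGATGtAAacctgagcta
Herpud1, C/EBP-ATF response element (chr8:94386317-94386324, opposite strand): gggtgcgggcTGATGcAAcccgccgtgg
Herpud1, ER stress element II (chr8:94386377-94386387, same strand): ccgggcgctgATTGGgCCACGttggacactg

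The whole window of Hspa5, which carries the ER stress element 65 to 47 bases before the start, is given on its plus strand as an example of the chaperone promoters, with that element in capitals, spacer included:
Hspa5 promoter: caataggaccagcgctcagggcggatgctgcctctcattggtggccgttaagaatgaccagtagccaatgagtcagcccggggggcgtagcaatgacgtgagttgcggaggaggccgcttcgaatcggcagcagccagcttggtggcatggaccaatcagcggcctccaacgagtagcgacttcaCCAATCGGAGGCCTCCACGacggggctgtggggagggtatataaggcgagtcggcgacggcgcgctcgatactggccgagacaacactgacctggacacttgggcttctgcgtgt

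Library totals ran from 23846398 to 32921876 counts, and the 42 genes took 0.263 to 0.441% of them. Pde10a, the targeted gene, did not fall in the KO-labelled libraries: it had 8.27 to 9.09 CPM (counts scaled to the size of the library) in KO DOX and 9.31 to 11.9 CPM in KO vehicle, against 1.79 to 2.7 CPM in WT DOX and 1.00 to 3.38 CPM in WT vehicle. It was higher in the KO-labelled libraries under vehicle (log2 fold change 2.30, adjusted p = 0.0047) and under DOX (1.98, adjusted p = 0.0243) by edgeR's quasi-likelihood test with Benjamini-Hochberg adjustment. Counts per gene do not show whether that RNA is functional, so every genotype direction here is that of the labels. Cardiomyocyte markers summed to 43000 to 68400 CPM in the 12 libraries, as for heart tissue, and no marker list was at 0. Atrial markers stood out in KO DOX mouse 18 (1630 CPM) and KO vehicle mouse veh_3394 (2210 CPM), against 77.9 to 274 CPM in the other 10 libraries. Mitochondrial genes took 19.5% of counts in WT vehicle mouse 2 and 24.4 to 33.6% in the other 11. In bulk tissue, fewer cells of a type and less RNA per cell cannot be told apart.

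Among WT hearts, the ER chaperones differed more between single hearts than between DOX and vehicle. Hspa5 (BiP), the main Hsp70 of the ER, had 613, 668 and 601 CPM in KO DOX mice 18, 19 and 20 and 669, 584 and 585 CPM in KO vehicle mice veh_3393, veh_3394 and veh_3395. It had 1290, 736 and 544 CPM in WT DOX mice 21, 22 and 24, against 680, 1110 and 812 CPM in WT vehicle mice 1, 2 and 3. The highest values of the 12 hearts were thus those of WT DOX mouse 21 and WT vehicle mouse 2, in opposite treatment groups, and the lowest was that of WT DOX mouse 24. Some library titles carry a suffix after their first number. Mice 21 and 2, with WT vehicle mouse 3 as the next highest (812 CPM), are the WT mice whose titles lack the suffix. Among WT vehicle mice only mouse 1 has it, while WT DOX mice 22 and 24 and all KO DOX mice do, so the groups differ in it. KO vehicle mouse veh_3393, which also lacks it, was not high (669 CPM). The part of the suffix in this order was not tested. Hsp90b1 (GRP94), the ER Hsp90, had 570, 370 and 280 CPM in WT DOX mice 21, 22 and 24 and 321, 607 and 390 CPM in WT vehicle mice 1, 2 and 3, while the 6 KO-labelled hearts lay between 297 and 347 CPM. Calr (calreticulin), the lectin chaperone that also buffers ER calcium, had 437, 285 and 223 CPM in WT DOX mice 21, 22 and 24 and 320, 472 and 366 CPM in WT vehicle mice 1, 2 and 3. Mouse 21 and mouse 2 were again above the others in both genes. Calr has a processed pseudogene, and how reads matching several places were counted is not given.

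Less abundant members also had WT DOX mouse 21 and WT vehicle mouse 2 as their 2 highest hearts. Sdf2l1, a cofactor of BiP, had 14.4, 3.71 and 3.46 CPM in WT DOX mice 21, 22 and 24, against 4.23, 14.9 and 7.82 CPM in WT vehicle mice 1, 2 and 3. Manf, a secreted ER stress factor, had 93.1, 39.2 and 19.9 CPM in WT DOX mice 21, 22 and 24, against 34.3, 93.8 and 54.6 CPM in WT vehicle mice 1, 2 and 3. Pdia4, a disulfide isomerase, had 47.5, 29.2 and 14.5 CPM in WT DOX mice 21, 22 and 24, against 27.2, 41.9 and 29.0 CPM in WT vehicle mice 1, 2 and 3. In each of these 3 genes the WT DOX and WT vehicle groups overlapped, with high and low hearts in both. The KO-labelled hearts were close together, at 3.26 to 5.17 CPM for Sdf2l1, 27.1 to 34.7 CPM for Manf and 24.5 to 34.2 CPM for Pdia4. WT DOX mouse 21 and WT vehicle mouse 2 were the 2 highest of 12 libraries for 10 of the 20 ER-arm genes: Hspa5, Hsp90b1, Pdia3, Pdia4, Pdia6, Calr, Sdf2l1, Manf, Creld2 and Hyou1. The same held for 0 of 21 tested ATF4-arm genes and for 2.03% of all genes tested. WT DOX mouse 24 was the lowest library for 8 of the 20 ER-arm genes and 2 of 21 ATF4-arm genes, against 13.7% of all genes tested. The pair of libraries was picked after the values were seen, so these counts are a description. The membrane sensors did not share this pattern: Atf6, Ern1 and Eif2ak3, with Herpud1 and Sel1l, were lowest of the 12 libraries in WT vehicle mouse 2. The share of all genes that were lowest in that library was not counted, so this describes the values only.

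**Figure D1:**
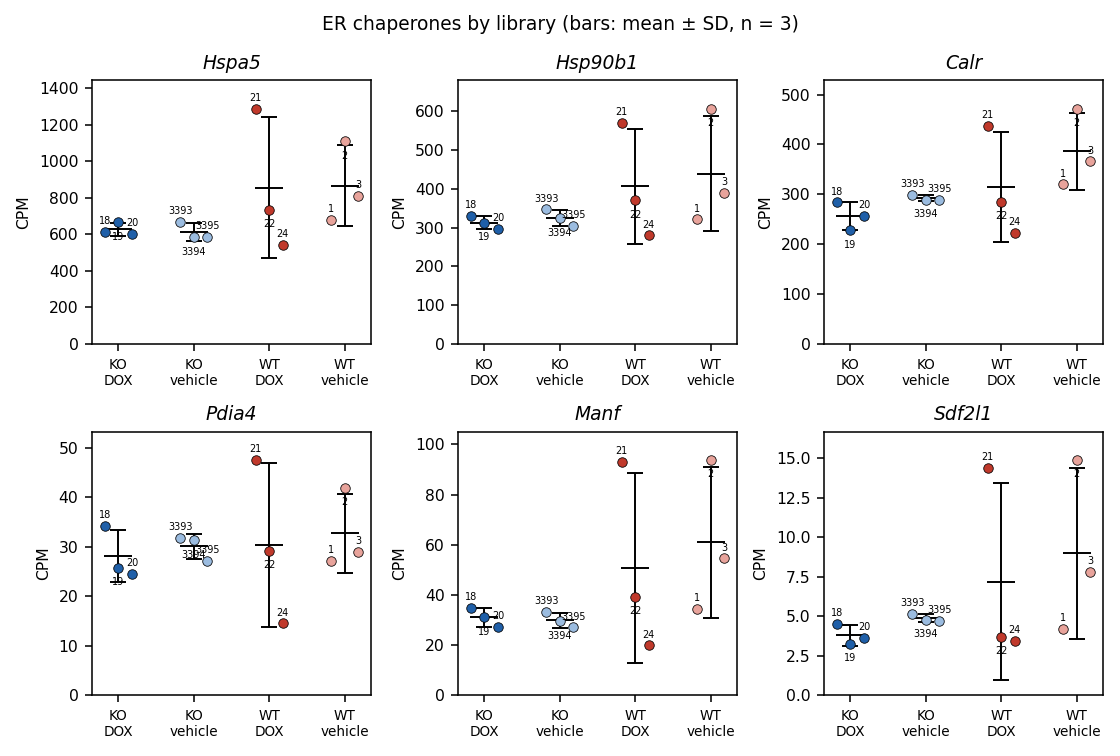
CPM of 6 ER chaperones and folding enzymes in each of the 12 hearts, by group, with the mouse number beside each point and bars for mean ± SD (n = 3); KO means labelled KO. WT DOX mouse 21 and WT vehicle mouse 2 stand above the rest, as for Hspa5 at 1290 and 1110 CPM, while the KO-labelled hearts lie close together at 584 to 669 CPM.

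The WT hearts spread more widely than the KO-labelled hearts. For Hspa5 the highest KO-labelled library was 1.15 times the lowest, against 2.37 times among the 6 WT libraries, and for Manf the ratios were 1.28 in KO-labelled and 4.72 in WT libraries. The median ratio over the ER arm was 1.30 in KO-labelled libraries and 2.15 in WT libraries. Over the ATF4 arm it was 1.67 in KO-labelled and 2.27 in WT libraries, and over all genes with a ratio it was 1.35 in KO-labelled and 1.71 in WT libraries. The ratio was wider in WT for 18 of 20 ER-arm genes and 16 of 21 ATF4-arm genes. It was also wider for 76.9% of all genes, so a wider ratio in WT was common to most of the transcriptome. Edem1, which hands misfolded glycoproteins to degradation, and Canx (calnexin), the membrane lectin chaperone, were the 2 ER-arm genes without a wider ratio in WT. It was 1.27 in KO-labelled and 1.13 in WT libraries for Edem1, and 1.24 in KO-labelled and 1.23 in WT libraries for Canx.

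**Figure D2:**
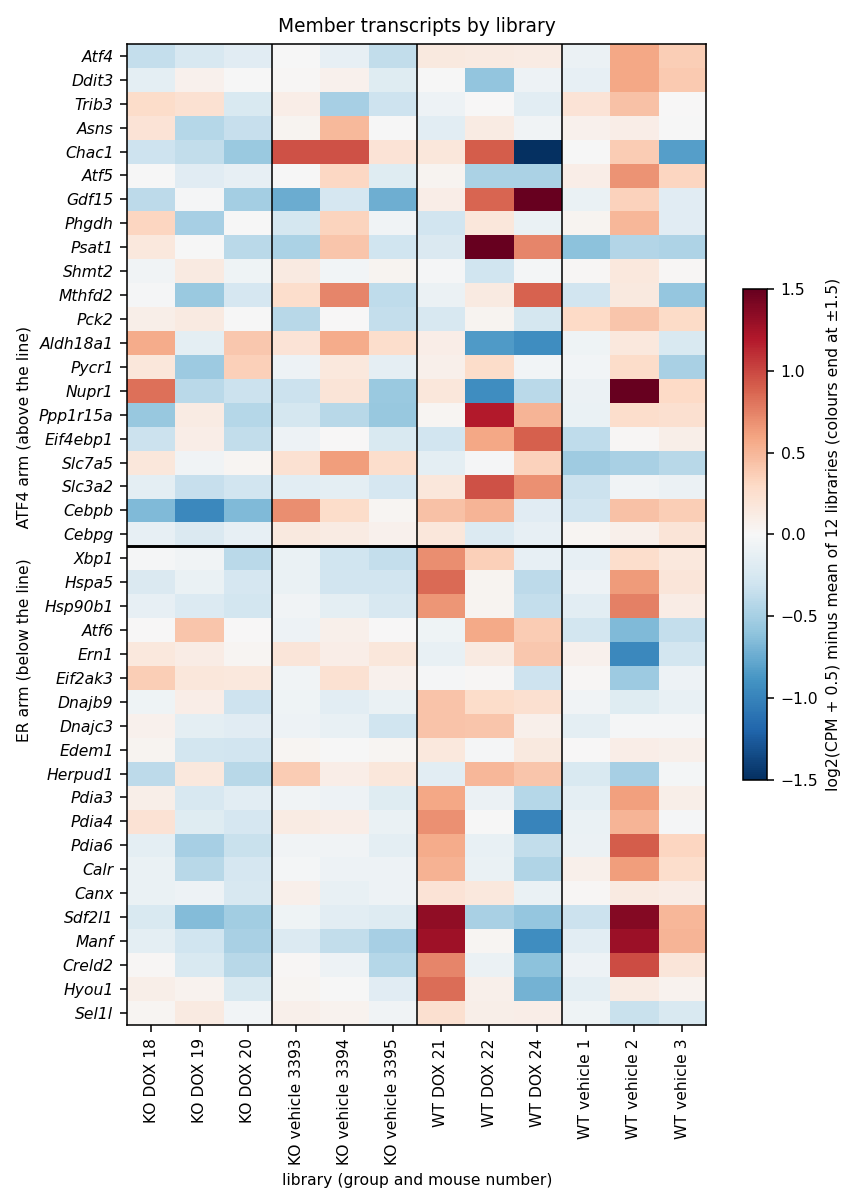
Log2(CPM + 0.5) of the 41 tested genes (rows) in each of the 12 libraries (columns), less the gene's mean over the libraries, with the ATF4 arm above the ER arm; colours end at ±1.5. The block of chaperones is high in WT DOX mouse 21 (ER-arm median 0.54) and WT vehicle mouse 2 (0.20) and low in WT DOX mouse 24 (-0.34); the ATF4-arm medians of these libraries were 0.02, 0.27 and -0.05.

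DOX against vehicle within WT hearts asks what the drug did to the 2 responses. Of 41 tested genes 7 rose and 2 fell (adjusted p below 0.05, edgeR), against 18.6% of all genes tested: 9.39% rose and 9.2% fell. The ATF4 arm had 3 rises (Slc3a2, Psat1, Slc7a5) and 2 falls (Atf5, Pck2), and the ER arm 4 rises (Atf6, Dnajb9, Sel1l, Dnajc3) and 0 falls. The share called was thus close to that of the transcriptome. The median log2 fold change was -0.09 in the ATF4 arm and 0.02 in the ER arm, against 0.00 over all genes. Groups did not overlap for 7 genes that were higher and 4 that were lower, against 16.8% and 15.8% of all genes.

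Amino acid import and serine synthesis held the rises of the ATF4 arm. Slc3a2 (CD98), the chain that pairs with light-chain amino acid transporters, had 57.0, 98.6 and 82.0 CPM in WT DOX mice 21, 22 and 24, against 40.4, 48.7 and 47.5 CPM in WT vehicle mice 1, 2 and 3 (log2 fold change 0.80, SE 0.16, adjusted p = 0.0147). Slc7a5 (LAT1), the leucine transporter that joins it, had 3.77, 4.19 and 5.5 CPM in WT DOX mice 21, 22 and 24, against 2.76, 2.87 and 3.06 CPM in WT vehicle mice 1, 2 and 3 (0.63, SE 0.18, adjusted p = 0.0329). Psat1, a serine synthesis enzyme, had 3.09, 12.2 and 6.45 CPM in WT DOX mice 21, 22 and 24, against 2.23, 2.59 and 2.54 CPM in WT vehicle mice 1, 2 and 3 (1.56, SE 0.41, adjusted p = 0.0272). In all 3 genes every WT DOX heart was above every WT vehicle heart, and mouse 21 was the lowest of the WT DOX hearts. Phgdh, the first enzyme of the same serine pathway, had few counts and a log2 fold change of -0.44 (SE 0.51, adjusted p = 0.554).

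Both falls in the ATF4 arm were in genes whose groups did not overlap. Atf5, a transcription factor of the ATF4 family that also serves the mitochondrial response, had 40.2, 28.0 and 28.0 CPM in WT DOX mice 21, 22 and 24, against 41.8, 62.5 and 49.2 CPM in WT vehicle mice 1, 2 and 3 (log2 fold change -0.68, SE 0.18, adjusted p = 0.0267). Pck2, the mitochondrial phosphoenolpyruvate carboxykinase, had 8.63, 10.6 and 8.47 CPM in WT DOX mice 21, 22 and 24, against 12.7, 13.9 and 12.6 CPM in WT vehicle mice 1, 2 and 3 (-0.50, SE 0.14, adjusted p = 0.0283). Atf5 overlaps Nup62 on the opposite strand and Pck2 overlaps Gm10876, and the strand setting of the counting is not given. Pck2 shares the C/EBP-ATF response element printed above with Asns, Trib3 and Chac1, which did not pass. Asns (asparagine synthetase) had a log2 fold change of -0.09, Trib3 (a pseudokinase that restrains ATF4) of -0.36 and Chac1 (a glutathione-degrading enzyme) of 0.24, with adjusted p from 0.272 to 0.805.

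The regulators at the head of the pathway did not pass the threshold. Atf4 had 73.4, 73.2 and 72.5 CPM in WT DOX mice 21, 22 and 24, inside the 62.4, 99.6 and 85.8 CPM of WT vehicle mice 1, 2 and 3 (log2 fold change -0.18, SE 0.15, adjusted p = 0.405). Ddit3 (CHOP), the pro-apoptotic partner, had 14.9, 9.76 and 14.2 CPM in WT DOX and 13.7, 22.5 and 19.7 CPM in WT vehicle hearts in the same mouse order (-0.53, adjusted p = 0.0667). Ddit3 shares bases with Mars on the opposite strand. Gdf15, the stress hormone, had 1.15, 2.33 and 4.20 CPM in WT DOX mice 21, 22 and 24, against 0.935, 1.45 and 0.873 CPM in WT vehicle mice 1, 2 and 3. Its log2 fold change was 1.23 (SE 0.43, adjusted p = 0.0639), and mouse 21 lay inside the vehicle range. Nupr1, a small stress-induced chromatin protein, had 4.21, 1.71 and 2.68 CPM in WT DOX and 3.47, 11.8 and 4.68 CPM in WT vehicle hearts, with a log2 fold change of -1.23 (adjusted p = 0.0993) and its highest value in WT vehicle mouse 2. Neither gene passed, and both groups overlapped. Mthfd2, the mitochondrial folate enzyme, had a log2 fold change of 0.69 (SE 0.37, adjusted p = 0.201). Ppp1r15a (GADD34), which brings the phosphatase back to eIF2, had 0.52 (adjusted p = 0.163), and Eif4ebp1, a brake on cap-dependent translation, 0.56 (adjusted p = 0.118).

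In the ER arm the rises were in a sensor, a pair of ER J-domain proteins and a degradation factor, not in the abundant chaperones. Atf6, the sensor that is cleaved into a transcription factor, had 126, 196 and 173 CPM in WT DOX mice 21, 22 and 24, against 109, 83.1 and 103 CPM in WT vehicle mice 1, 2 and 3 (log2 fold change 0.75, SE 0.17, adjusted p = 0.0174). Dnajb9 (ERdj4), a BiP cochaperone that restrains IRE1, had 65.6, 59.2 and 57.6 CPM in WT DOX and 46.9, 42.9 and 45.1 CPM in WT vehicle hearts (0.43, SE 0.10, adjusted p = 0.0208). Unlike the chaperones, neither gene had WT vehicle mouse 2 among its high values. Dnajc3 (p58IPK), a BiP cochaperone that inhibits eIF2 kinases, had 75.8, 74.9 and 59.2 CPM in WT DOX and 50.8, 55.4 and 55.6 CPM in WT vehicle hearts (0.37, SE 0.11, adjusted p = 0.0401). Sel1l, the adaptor of the HRD1 ubiquitin ligase, had 87.5, 78.4 and 79.2 CPM in WT DOX and 70.8, 58.7 and 63.2 CPM in WT vehicle hearts (0.35, SE 0.10, adjusted p = 0.0305). All WT DOX hearts were above all WT vehicle hearts in these 4 genes. Herpud1, another part of ER-associated degradation and the gene with both printed elements, had 281, 444 and 421 CPM in WT DOX and 267, 223 and 307 CPM in WT vehicle hearts, with overlap at mouse 21 (0.52, SE 0.20, adjusted p = 0.0793). Xbp1 had 114, 90 and 64.3 CPM in WT DOX and 64.6, 84.1 and 78.6 CPM in WT vehicle hearts (0.24, SE 0.18, adjusted p = 0.367). The abundant chaperones and their partners, from Hspa5 at -0.02 (SE 0.26) and Hsp90b1 at -0.11 (SE 0.25) to Calr at -0.29 (SE 0.21), Sdf2l1 at -0.34 (SE 0.51) and Pdia4 at -0.11 (SE 0.32), had adjusted p from 0.331 to 0.964. The pair of high libraries described above falls on both sides of this comparison.

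**Figure D3:**
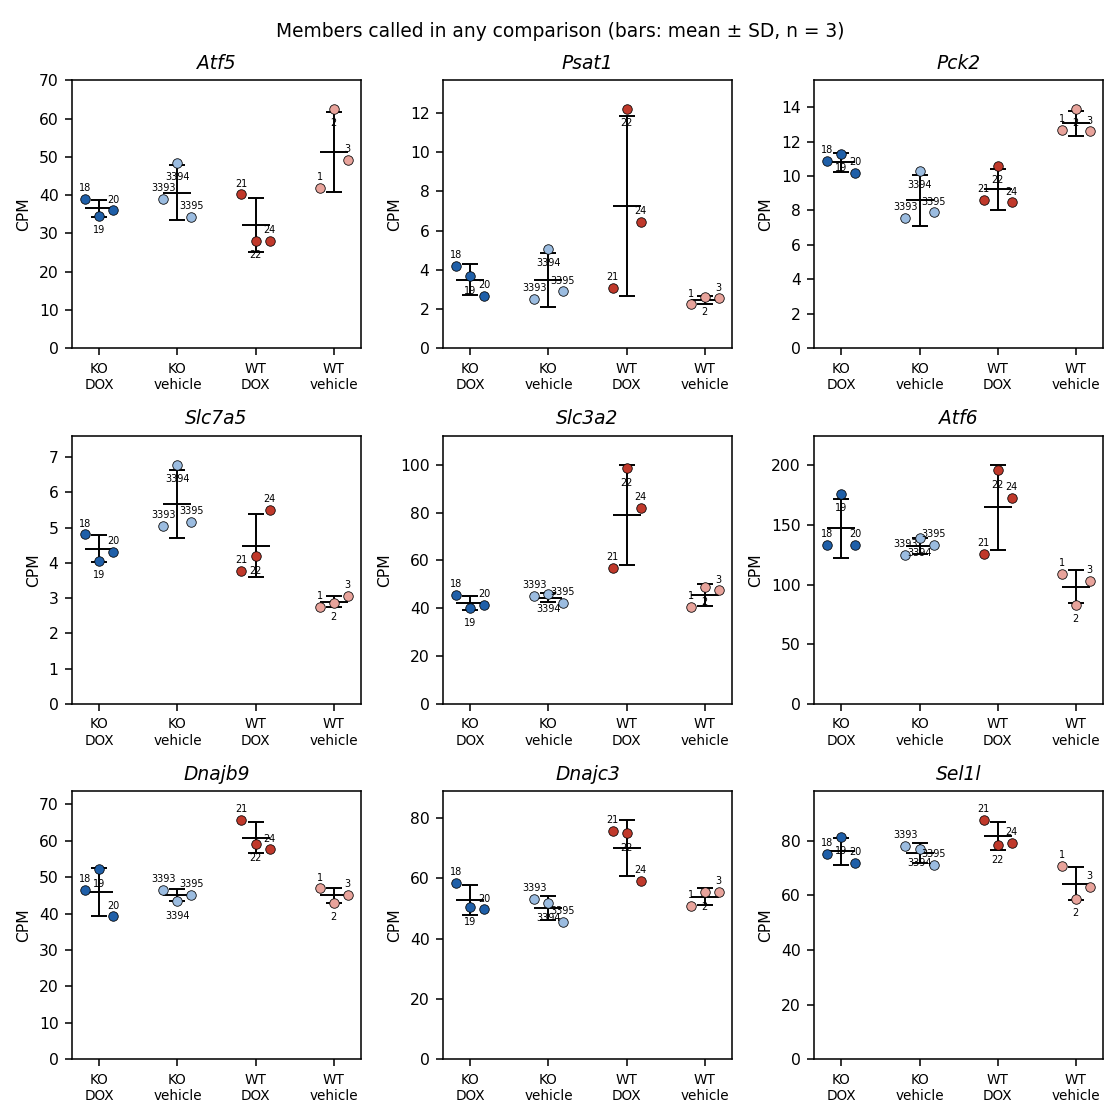
CPM in each heart of the 9 genes that passed the threshold in at least 1 comparison, by group, with mouse numbers beside the points and bars for mean ± SD (n = 3); KO means labelled KO. WT DOX hearts lie above WT vehicle hearts for 7 genes, such as Slc3a2 at 57.0 to 98.6 against 40.4 to 48.7 CPM, and below for Atf5 and Pck2.

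Several classic ATF4 targets were at low levels in every group. Trib3 had 2.7, 2.88 and 2.53 CPM in WT DOX mice 21, 22 and 24, just below the 3.38, 4.08 and 2.9 CPM of WT vehicle mice 1, 2 and 3. Asns had 1.91, 2.44 and 2.1 CPM in WT DOX and 2.32, 2.38 and 2.18 CPM in WT vehicle hearts, and Chac1 had 4.6, 8.01 and 1.09 CPM in WT DOX and 4.01, 5.39 and 2.06 CPM in WT vehicle hearts. In WT, Chac1 thus differed more between hearts of 1 group than between WT DOX and WT vehicle. Mthfd2 had 2.26, 2.73 and 4.92 CPM in WT DOX and 1.91, 2.76 and 1.47 CPM in WT vehicle hearts, with mouse 24 apart. Phgdh was at 0.183 to 0.864 CPM in the 12 libraries and has a processed pseudogene. Of the other proline and one-carbon enzymes, Aldh18a1 had 8.34, 4.08 and 3.83 CPM in WT DOX and 7.39, 8.7 and 6.55 CPM in WT vehicle hearts (log2 fold change -0.48, adjusted p = 0.228), Pycr1 had 0.22 (adjusted p = 0.691) and Shmt2 -0.18 (adjusted p = 0.209).

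The calls in WT, of these genes as of all genes, depended on which hearts were in the fit, while the fold changes of the 9 genes kept their sign. The count of 9 was 0 without WT DOX mouse 22 or without WT DOX mouse 24, 1 without WT vehicle mouse 2, 2 without WT vehicle mouse 3 and 16 without WT DOX mouse 21, and it was also 0 when the 6 WT libraries were fitted alone. Calls over all genes moved alongside: they were 2743 with all 12 libraries, 185 without mouse 22, 183 without mouse 24, 513 without mouse 2, 742 without mouse 3, 3851 without mouse 21 and 20 with the WT libraries alone. In the 12 fits without a single library, Slc3a2 kept its call in 10 (log2 fold change 0.61 to 0.99, adjusted p up to 0.0583), Atf6 in 9 (0.61 to 0.91), Dnajb9 in 8 (0.38 to 0.47) and Dnajc3 in 1 (0.31 to 0.48). With the title suffix as a covariate the count was 7, and Psat1 and Slc7a5 lost their calls. Cell type markers moved with DOX in WT as well. Of 7 neutrophil markers 6 rose, with sums of 9.99, 40.8 and 32.8 CPM in WT DOX mice 21, 22 and 24, against 3.25 to 4.36 CPM in WT vehicle hearts. Of 5 erythroid markers 5 fell, with sums of 0.144 to 0.395 CPM in WT DOX and 50.8 to 172 CPM in WT vehicle hearts, and 4 of 7 endothelial and 2 of 7 cardiomyocyte markers also fell. Adipocyte markers summed to 326 to 430 CPM in WT DOX and 655 to 884 CPM in WT vehicle hearts, with 1 of 5 tested called lower. Among pericyte and smooth muscle markers 1 of 7 fell, and the 1 tested hepatocyte marker rose. None of the tested atrial, fibroblast, macrophage, mesothelial or lymphoid markers passed. Of 10 lymphoid (T, B and plasma cell) markers only 2 were tested, and of 6 atrial markers 5. The part of these cell types in the changes of the stress genes was not tested.

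DOX against vehicle within KO-labelled hearts called none of the 41 genes with edgeR, where 0.0136% of all genes passed. At an unadjusted p under 0.05 there were 1 gene higher and 3 lower, and DESeq2 called 1. The median log2 fold change was -0.07 in the ATF4 arm and -0.02 in the ER arm, against 0.01 over all genes. Cebpb (C/EBPβ), a partner of ATF4, had 10.8, 8.67 and 10.8 CPM in KO DOX mice 18, 19 and 20, against 28.6, 21.3 and 17.8 CPM in KO vehicle mice veh_3393, veh_3394 and veh_3395. The groups did not overlap, and its log2 fold change was -1.17 (SE 0.24, unadjusted p = 0.000367 and adjusted p = 0.246 by edgeR). Cebpb shares bases with Tmem189 on the opposite strand. Chac1 had 3.15, 3.00 and 2.58 CPM in KO DOX and 8.25, 8.26 and 4.74 CPM in KO vehicle hearts (-1.28, SE 0.53, adjusted p = 0.862). Groups did not overlap for 6 genes that were lower, namely Chac1, Slc7a5, Cebpb, Cebpg, Calr and Sdf2l1, and for 0 that were higher, against 8.05% and 8.27% of all genes.

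The 9 genes called in WT had smaller DOX effects or effects of the other sign in KO-labelled hearts, with none past the threshold. They were picked by their WT calls, so smaller effects in KO-labelled hearts could follow from that choice alone. Only 0.0136% of all genes passed in KO-labelled hearts. Slc3a2 had 45.6, 39.9 and 41.5 CPM in KO DOX mice 18, 19 and 20, against 45.3, 45.8 and 42.3 CPM in KO vehicle mice veh_3393, veh_3394 and veh_3395 (log2 fold change -0.07, SE 0.16). Psat1 had 4.18, 3.66 and 2.66 CPM in KO DOX and 2.51, 5.06 and 2.90 CPM in KO vehicle hearts (0.00, SE 0.41). Atf6 had 133, 176 and 133 CPM in KO DOX and 125, 139 and 133 CPM in KO vehicle hearts (0.16, SE 0.17). The KO DOX and KO vehicle hearts overlapped in all 3. Dnajb9 (0.03, SE 0.10), Dnajc3 (0.08, SE 0.11) and Sel1l (0.01, SE 0.10) were within 1 SE of 0. Pck2 had 10.9, 11.3 and 10.2 CPM in KO DOX, against 7.57, 10.3 and 7.89 CPM in KO vehicle hearts, a log2 fold change of 0.33 (SE 0.14, adjusted p = 0.866). Slc7a5 had 4.81, 4.06 and 4.32 CPM in KO DOX and 5.06, 6.79 and 5.16 CPM in KO vehicle hearts, without overlap (-0.37, SE 0.18, adjusted p = 0.977). Atf5 had 39, 34.6 and 36.0 CPM in KO DOX and 39, 48.5 and 34.3 CPM in KO vehicle hearts (-0.15, SE 0.18, adjusted p = 0.997). Neutrophil marker sums were 5.45 to 6.32 CPM in KO DOX and 7.72 to 11.8 CPM in KO vehicle hearts.

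**Figure D4:**
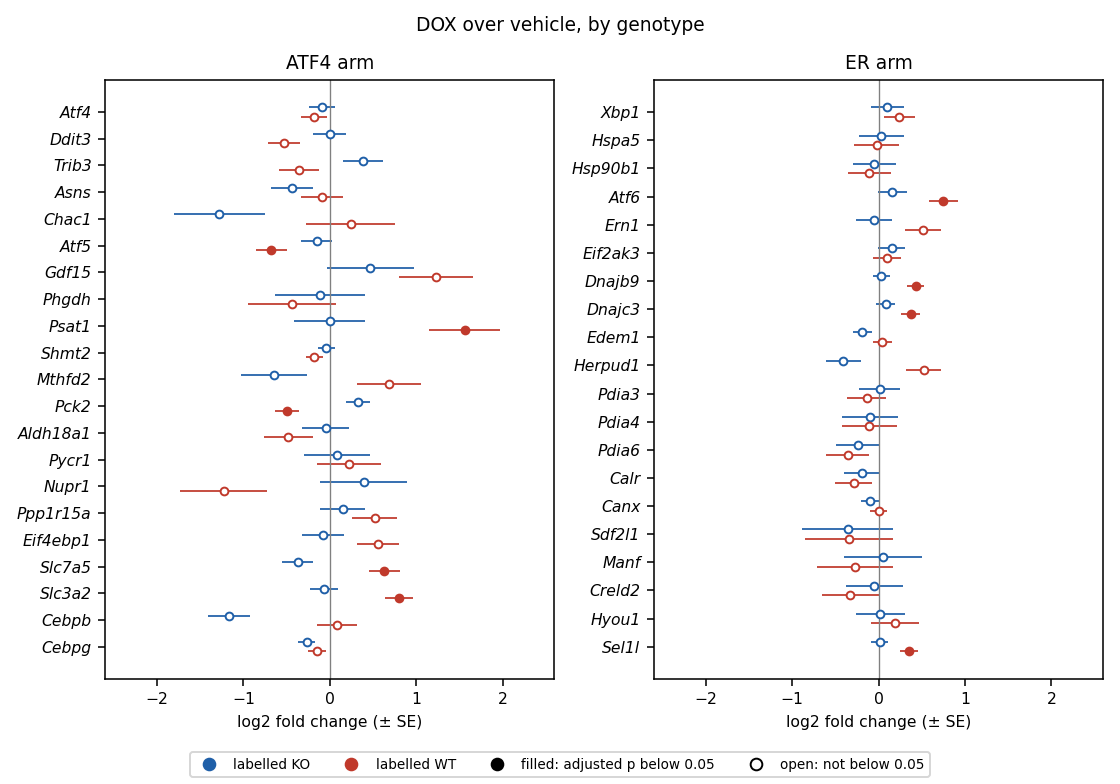
Log2 fold change of DOX over vehicle (± SE, n = 3 mice per group) of the 41 tested genes, in KO-labelled hearts (blue) and WT hearts (red), with filled points where the adjusted p is below 0.05. The SE rests on a spread shared by all 4 groups. All 9 filled points belong to WT, from -0.68 for Atf5 to 1.56 for Psat1.

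Whether the DOX effect differed between KO-labelled and WT hearts was tested as the interaction, the DOX effect in KO-labelled less that in WT hearts. edgeR called none of the 41 genes, against 0.21% of all genes, with 3 genes higher and 9 lower at an unadjusted p under 0.05, while DESeq2 called 5. The smallest adjusted p among the 41 was 0.105, for Pck2 (log2 0.83, SE 0.19). Slc7a5 followed at -1.0 (SE 0.25, adjusted p = 0.128), Slc3a2 at -0.87 (SE 0.23, adjusted p = 0.136), Cebpb at -1.25 (SE 0.33, adjusted p = 0.142) and Herpud1 at -0.94 (SE 0.28, adjusted p = 0.184). Psat1 had -1.55 (SE 0.58, adjusted p = 0.255) and Atf6 -0.59 (SE 0.24, adjusted p = 0.268). So the calls in WT and their lack in KO-labelled hearts were not shown to differ at the threshold used. The median interaction was -0.15 in the ATF4 arm and -0.06 in the ER arm. The ER-arm value was 0.20 without WT DOX mouse 21.

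KO-labelled against WT hearts under vehicle asks what the genotype label did without the drug. Of 41 genes 1 was higher and 1 lower by edgeR, against 1.79% and 1.09% of all genes. Slc7a5 had 5.06, 6.79 and 5.16 CPM in KO vehicle mice veh_3393, veh_3394 and veh_3395, against 2.76, 2.87 and 3.06 CPM in WT vehicle mice 1, 2 and 3, so its level was higher in every KO-labelled heart (log2 fold change 0.97, SE 0.18, adjusted p = 0.0217). Pck2 had 7.57, 10.3 and 7.89 CPM in KO vehicle hearts, against 12.7, 13.9 and 12.6 CPM in WT vehicle hearts (-0.60, SE 0.14, adjusted p = 0.0412). In both genes the KO vehicle values thus lay on the same side of WT vehicle as the WT DOX values did. KO vehicle and WT DOX share that control group, and the values are set side by side only. Atf4 had 66.1, 60.8 and 51.2 CPM in KO vehicle and 62.4, 99.6 and 85.8 CPM in WT vehicle hearts, with overlap (-0.48, SE 0.15, adjusted p = 0.0792).

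Groups under vehicle did not overlap for 6 genes that were higher in KO vehicle hearts (Aldh18a1, Slc7a5, Atf6, Ern1, Herpud1, Sel1l) and 6 that were lower (Gdf15, Pck2, Ppp1r15a, Hspa5, Calr, Manf), against 16.5% and 14.8% of all genes, so these counts were no higher than in the transcriptome. Slc7a5 and Pck2 are the 2 of the 12 that passed the threshold. Herpud1 had 410, 337 and 353 CPM in KO vehicle and 267, 223 and 307 CPM in WT vehicle hearts (log2 fold change 0.46, adjusted p = 0.161). Manf had 33.1, 29.5 and 27.1 CPM in KO vehicle hearts, below the 34.3, 93.8 and 54.6 CPM of WT vehicle hearts (-1.03, SE 0.45, adjusted p = 0.173). The ER-arm median was -0.12 and the ATF4-arm median -0.02, against 0.02 over all genes. The count of 2 fell to 0 without KO vehicle mouse veh_3393 or veh_3395 or WT vehicle mouse 2 or 3, to 1 without KO vehicle mouse veh_3394 or any KO DOX mouse, and was 5 without WT vehicle mouse 1. Calls over all genes were 425 in the fit of 12 libraries and ran from 42 without KO vehicle mouse veh_3393 to 2670 without WT vehicle mouse 1. Adipocyte markers summed to 378 to 448 CPM in KO vehicle and 655 to 884 CPM in WT vehicle hearts, with 1 of 5 tested called lower. Endothelial markers (2 of 7) were lower in KO vehicle hearts, and 1 neutrophil and 1 cardiomyocyte marker were higher; their part was not tested.

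KO-labelled against WT hearts under DOX called 0 genes higher and 1 lower, against 0.19% and 0.23% of all genes. The gene was Slc3a2, at 45.6, 39.9 and 41.5 CPM in KO DOX mice 18, 19 and 20, against 57.0, 98.6 and 82.0 CPM in WT DOX mice 21, 22 and 24 (log2 fold change -0.90, SE 0.16, adjusted p = 0.0359). Every KO DOX heart was below every WT DOX heart. Gdf15 had 0.670, 1.02 and 0.578 CPM in KO DOX, against 1.15, 2.33 and 4.20 CPM in WT DOX hearts, again without overlap (-1.76, SE 0.45, adjusted p = 0.103). Cebpb had 10.8, 8.67 and 10.8 CPM in KO DOX, against 23.9, 25.1 and 15.4 CPM in WT DOX hearts (-1.09, SE 0.24, adjusted p = 0.072). Atf4 had 51.9, 56.3 and 59.1 CPM in KO DOX, below the 73.4, 73.2 and 72.5 CPM of WT DOX hearts (-0.39, SE 0.15, adjusted p = 0.238). Those 4 genes, with Dnajb9 and Dnajc3, were the 6 whose KO DOX hearts all lay below the WT DOX hearts, and Eif2ak3 (PERK) was the 1 whose KO DOX hearts all lay above, against 9.75% and 9.86% of all genes.

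The ER arm as a list had a median log2 fold change of -0.31 under DOX, with 19 of 20 genes below 0, against a median of 0.01 over all genes and -0.11 in the ATF4 arm. The exception was Eif2ak3 at 0.34 (SE 0.16, adjusted p = 0.327). Under vehicle 14 of 20 ER-arm genes were also below 0. Of all 14757 genes tested, 7039 were below 0 under DOX and 7085 under vehicle. The ER-arm median under DOX was -0.05 without WT DOX mouse 21, the heart with the high chaperone levels. The single call on Slc3a2 was lost without WT DOX mouse 22 or 24, without WT vehicle mouse 3 and without any of the 6 KO-labelled libraries, while its log2 fold change stayed between -1.09 and -0.72 in the 12 fits without a single library. The count was 6 without WT DOX mouse 21, where calls over all genes were 727 in place of 62. It was 0 when the 6 DOX libraries were fitted alone, and 8 without both WT DOX mouse 21 and WT vehicle mouse 2, an alternative chosen after seeing the data. Neutrophil marker sums were 5.45 to 6.32 CPM in KO DOX and 9.99 to 40.8 CPM in WT DOX hearts, with 2 of 7 markers called lower; their part was not tested.

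**Figure D5:**
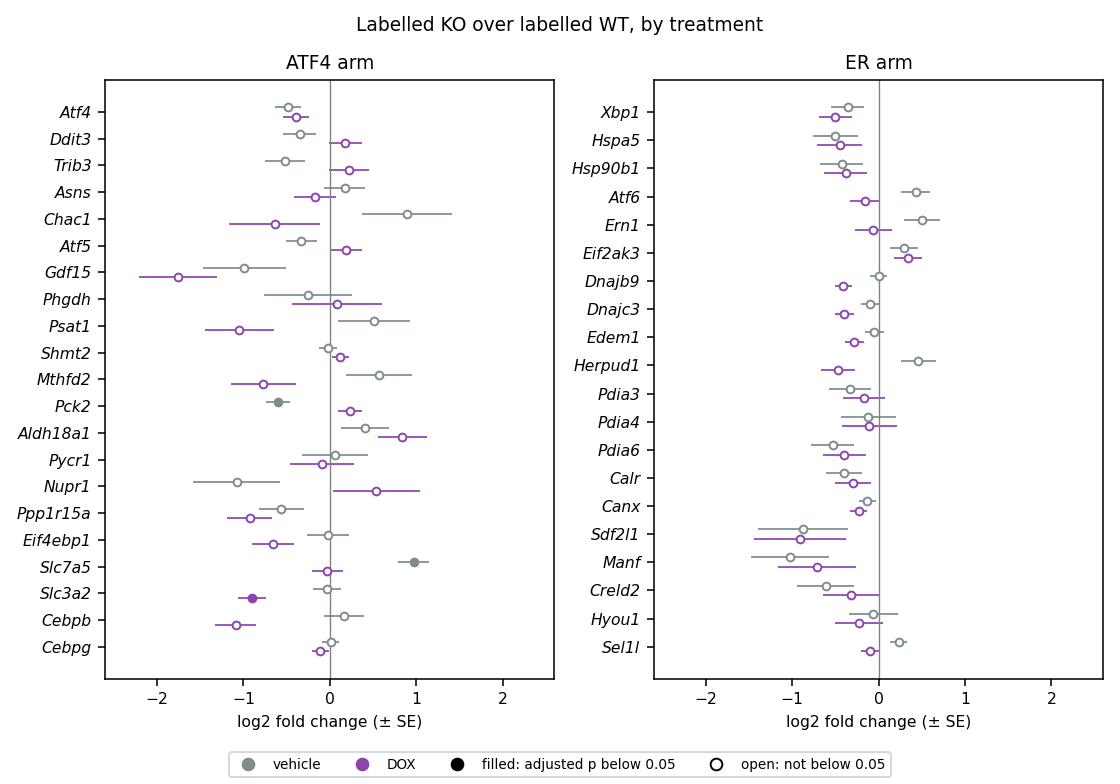
Log2 fold change of KO-labelled over WT hearts (± SE, n = 3 mice per group) of the 41 tested genes, under vehicle and under DOX, with filled points where the adjusted p is below 0.05. The SE rests on a spread shared by all 4 groups. Under DOX 19 of 20 ER-arm points lie below 0, and under vehicle 14 of 20. Of all 14757 genes tested, 7039 were below 0 under DOX and 7085 under vehicle. The filled points are Slc7a5 (0.97) and Pck2 (-0.60) under vehicle and Slc3a2 (-0.90) under DOX.

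Levels between genes were compared as mean CPM per kb of exon, using exon lengths of GENCODE M21. In WT DOX hearts Hspa5 was at 202 CPM per kb, Herpud1 at 164, Calr at 109, Hsp90b1 at 101, Canx at 59.2 and Pdia3 at 57.0. The corresponding levels in KO DOX hearts were 148 for Hspa5, 118 for Herpud1, 88.9 for Calr, 77.6 for Hsp90b1, 50.7 for Canx and 50.7 for Pdia3. These 6 genes stood above all of the ATF4 arm, in which Eif4ebp1 (35.4 CPM per kb) and Atf4 (31.0) led in WT DOX hearts. Other folding genes lay lower than Eif4ebp1 and Atf4, from Pdia6 (26.3) and Manf (14.4) to Hyou1 (7.19) and Sdf2l1 (6.48). Phgdh (0.171), Pycr1 (0.292) and Asns (0.786), which serve serine, proline and asparagine synthesis, were among the lowest, while the serine pathway genes Psat1 (1.7) and Shmt2 (12.4) were higher. Of the 3 membrane sensors Atf6 was at 17.9 CPM per kb, Ern1 at 2.02 and Eif2ak3 at 1.52 in WT DOX hearts.

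Further genes of the same pathways came from 5 lists that share no gene with the 42, with the tRNA ligase Nars in 2 of them. In WT hearts under DOX, 5 of 18 tested genes of eIF2 kinases and translation control rose and 1 fell, where 9.39% of all genes rose and 9.2% fell. Impact, an inhibitor of GCN2, rose by a log2 fold change of 0.70 (adjusted p = 0.0165), Eif2s3x, a subunit of eIF2, by 0.62 (0.0132), and the kinase genes Eif2ak4 (GCN2) by 0.51 (0.0310) and Eif2ak2 (PKR) by 0.65 (0.0361). Among 28 other ATF4 and CHOP target genes 5 rose and 1 fell, beside the same shares of all genes. Slc38a2 (SNAT2), a neutral amino acid transporter, averaged 318 CPM in WT DOX and 190 CPM in WT vehicle hearts (0.74, adjusted p = 0.0157), and Atf3, an immediate stress factor, averaged 53.7 CPM in WT DOX and 10.6 CPM in WT vehicle hearts (2.33, adjusted p = 0.0384). Sesn2, a leucine sensor, rose by 0.61 (adjusted p = 0.0215), and Cth, which makes cysteine, fell by 1.55 on the log2 scale (adjusted p = 0.0195).

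The remaining lists are set beside the same shares, 9.39% of all genes higher and 9.2% lower. Of 20 cytosolic aminoacyl-tRNA synthetases 3 rose and 0 fell, namely Iars (0.44), Nars (0.38) and Dars (0.37). Of 65 other ER genes 7 rose and 1 fell, with Dnajc10, a disulfide reductase, at 0.54 (adjusted p = 0.0132) and Sec31a, a COPII coat subunit, at 0.37 (adjusted p = 0.0187). Of 13 mitochondrial chaperones and proteases 0 rose and 3 fell: Clpp at -0.66 (adjusted p = 0.0172), Htra2 at -0.37 and Hspe1 at -0.80. In KO-labelled hearts DOX called 0 genes in each of the 5 lists by edgeR. At an unadjusted p under 0.05 there were 2 higher and 4 lower among the other ATF4 and CHOP targets, 0 higher and 2 lower among the other ER genes, and 0 in the remaining lists. Under DOX, Slc38a2 was lower in KO-labelled than in WT hearts, at a mean of 155 CPM in KO DOX and 318 CPM in WT DOX (log2 fold change -1.03, adjusted p = 0.0183), and no other gene of the 5 lists passed in that comparison. Under vehicle, Mthfd1l, a mitochondrial folate enzyme, averaged 3.85 CPM in KO-labelled and 0.539 CPM in WT hearts (2.83, adjusted p = 0.0104), and Selenok, an ER selenoprotein, averaged 35.2 CPM in KO-labelled and 47.2 CPM in WT hearts (-0.42, adjusted p = 0.0435).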

How the data were processed

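Per the labels' protocols, polyA RNA of heart tissue was made into stranded libraries with strand marking. For each library the authors deposited a table of raw read counts, 1 row per gene symbol. Per the submitters' processing notes, Subread 1.6.4, featureCounts, STAR 2.7.0f and fastp 0.20.0 were used. Not given in the sources used here are the genome build, the annotation, the strand setting and the handling of reads that match several places.

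The raw counts went unchanged into edgeR 4.0.16 under R 4.3.3. Of 55453 symbols 14757 passed filterByExpr by group. All 12 libraries entered 1 TMM-scaled negative binomial fit of the 4 group means. Its quasi-likelihood F test served 5 comparisons, with p-values adjusted by Benjamini-Hochberg over the 14757 genes and called below 0.05. The biological coefficient of variation was 17.5%. CPM used TMM-scaled library sizes. The SE is the log2 fold change divided by the root of its F statistic. The code was tested on simulated data.

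The members and lists were chosen with earlier results of these data known. Named genes were those called in any comparison, 18 preset members, and up to 4 called genes with the smallest p per further list. Library medians used log2(CPM + 0.5). Libraries differed from one another by more than sampling noise in each pair (chi-square per gene of at least 7.95), so none was counted as a repeat. WT vehicle mouse 2 had the largest values, from 94.2 to 235 in its pairs, against 7.95 to 129 in pairs without it. Within WT vehicle it had 156 with mouse 1 and 94.2 with mouse 3, against 17.6 between mice 1 and 3. WT DOX mouse 21 also differed from its own group, with 70.7 to mouse 22 and 73.6 to mouse 24, against 37.4 between mice 22 and 24. It was nearer to the KO-labelled libraries (17.5 to 35.8) and to WT vehicle mice 1 (23.5) and 3 (30.7), but not to WT vehicle mouse 2 (155). Replicates are separate mouse numbers. The p-values and SEs use a spread per gene that is shared by all 4 groups, not that of the compared hearts alone. The WT comparisons thus also draw on the KO-labelled hearts, which lay closer together for genes such as Hspa5. The ratios of highest to lowest library given above take DOX and vehicle together, so they do not measure this spread within groups. For Hspa5 the SE of the DOX effect was 0.26 in both genotypes. Its SDs were 386 (DOX) and 221 CPM (vehicle) in WT, against 35.6 (DOX) and 49 CPM (vehicle) in KO-labelled hearts. Positions and exon lengths came from GENCODE M21, matched by symbol, and promoters from RefSeq. Alternatives included other scalings, filters, DESeq2 1.42.0, limma 3.58.1 (voom), the compared groups alone, a covariate from the title suffix, and fits without single libraries or pairs of libraries.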

Additional observations from a re-analysis of the deposited data

Results flagged for a closer look

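Slc7a5, the leucine transporter of the ATF4 arm, lay on opposite sides of its vehicle group under DOX, by genotype label. Each KO DOX heart (4.81, 4.06 and 4.32 CPM) was below each KO vehicle heart (5.06, 6.79 and 5.16 CPM), while each WT DOX heart (3.77, 4.19 and 5.5 CPM) was above each WT vehicle heart (2.76, 2.87 and 3.06 CPM). The difference itself, the DOX effect in KO-labelled less that in WT hearts, was -1.0 on the log2 scale (SE 0.25) and missed the threshold in edgeR's quasi-likelihood test (adjusted p = 0.128).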

How the results depend on the processing

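No paired analysis was possible because the replicate numbers differ between the groups. For DOX in WT the 9 called genes became 15 with no filter on low counts, 15 with limma-voom and 0 with only the groups compared; without single libraries the count ran from 0 to 16. For DOX in KO the 0 became 2 with no filter, 1 with DESeq2 and 1 with limma-voom. For KO against WT under vehicle the 2 became 1 with no TMM scaling, 15 with no filter, 16 with limma-voom, 1 with only the groups compared, 1 with the title suffix as a covariate, 1 without mice veh_3394 and 18 (KO vehicle and KO DOX), and 1 without mice 21 and 2 (WT DOX and WT vehicle), with 0 to 5 without single libraries. For KO against WT under DOX the 1 became 0 with no TMM scaling, 12 with no filter, 6 with DESeq2, 8 with limma-voom, 0 with only the groups compared, 0 without mice veh_3394 and 18 and 8 without mice 21 and 2, with 0 to 6 without single libraries. For the interaction the 0 became 10 with no filter, 5 with DESeq2, 10 with limma-voom and 2 without mice 21 and 2, with 0 to 4 without single libraries. The cause of these shifts was not tested. The ATF4-arm median moved to 0.08 for DOX in WT as a mean and to 0.13 without mice 21 and 2; under DOX, KO against WT, it moved to -0.30 as a mean and -0.34 without mice veh_3394 and 18, and ran from -0.34 to -0.03 without single libraries. Its interaction median moved to -0.45 with limma-voom and -0.45 without mice 21 and 2, and ran from -0.37 to -0.02 without single libraries. The ER-arm median of KO against WT under DOX moved to -0.05 without mice 21 and 2 and ran from -0.47 to -0.05 without single libraries; its interaction median ran from -0.27 to 0.20. A group left with fewer libraries was assumed to vary like the others. Of single-gene values, 182 changed their call and 0 called values reversed; of 2460 uncalled values 138 took the other sign. The pair of mice 21 and 2 was chosen after seeing the data. Low counts limit Fgf21, Phgdh, Pycr1 and Gdf15.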
